A study of Arabidopsis thaliana with 9 samples.

Results

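Plant cells grow by yielding of the wall, and enzymes and proteins secreted into it set how easily its cellulose and xyloglucan network gives way. Xyloglucan endotransglucosylase/hydrolases (XTH) cut and rejoin xyloglucan chains. Expansins (EXPA and EXPB) loosen contacts between cellulose and other wall glycans without cutting them, and the expansin-like proteins (EXLA and EXLB) resemble them in sequence. Glycoside hydrolase family 9 enzymes (GH9) are endoglucanases, of which class A is anchored in the membrane, class B is secreted and class C carries an added carbohydrate-binding module. In roots these families are known for cell elongation, root hair growth and vascular development.

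The genes described here have a symbol of these families (XTH, EXPA, EXPB, EXLA, EXLB or GH9 with a number). All of those with a probe set that the platform annotation used here pairs with 1 gene were taken. There were 42 of them, among 13355 genes with such a probe set, and each had 1 probe set. They comprised 9 XTH, 10 EXPA, 4 EXPB, 4 expansin-like and 15 GH9 genes, out of 87 genes with such symbols in the RefSeq annotation TAIR10.1. A further 4 probe sets of these families match several genes and were not used. The annotation gives no gene for 8730 of the 22746 probe sets tested. Whether other genes of these families are among them was not checked, so genes missing here may still be on the array. Genes of other lists are called measured below by the same rule. The rule uses symbols alone and no measured value.

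RNA came from the terminal 0.5 mm of primary roots of untreated Arabidopsis thaliana seedlings, 4 days after germination, with about 200 hand-dissected tips per replicate, on Affymetrix ATH1 arrays. Each genotype had 3 biological replicates: wild type (Col er-2), a triple mutant for the alleles cna-2, phb-13 plus phv-11, and a quadruple mutant in which rev-6 was added. CNA, PHB, PHV and REV encode HD-ZIP III transcription factors, known for their part in organ polarity and vascular patterning. The quadruple homozygotes were taken from a population segregating for rev-6 and recognised by radial cotyledons. The labels give the PHV allele of the quadruple mutant both as phv-11 and as phv-6, its titles write phb1 for phb-13, and whether the mutants carry er-2 is not stated. These are whole-seedling mutants, so every cell of the tip carried the alleles. The comparisons ask what loss of 3 of these genes, of all 4, and of REV in the triple-mutant background does to the root-tip transcriptome.

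Values are log2 signals from RMA, the authors' normalization, so a difference of 1 is a 2-fold change. Array medians lay between 5.79 and 5.89 in wild type, 5.92 and 5.95 in the triple mutant, and 5.91 and 5.95 in the quadruple mutant. All mutant medians were thus above those of wild type, and the number of arrays limits the precision. PHV, the mutated gene with a usable probe set, was at 7.14 to 7.28 on wild-type arrays, at 4.71 to 4.77 on triple-mutant arrays and at 5.03 to 5.22 on quadruple-mutant arrays. Both mutants lay below wild type, and PHV is mutated in both, so it does not check their labels against each other. Of 4 measured root-tip regulators, BBM, JKD and LHW lay above the array medians on all 9 arrays. The stem-cell factor BBM was at 7.68 to 8.38, JKD at 6.59 to 6.81 and LHW at 8.75 to 9.07. AGL42 lay at 5.09 to 6.76, and under the array medians on every triple-mutant array. The 1 measured gene of a list of 22 green-tissue genes, RCA, lay between 4.26 and 4.80 on 8 arrays and at 6.51 on wild-type replicate 3. Probe sets were called at an adjusted p under 0.05 in limma, with Benjamini-Hochberg adjustment over 22746 probe sets.

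Many of these genes gave little signal in the tip. The mean of 29 of the 42 (69.0%) lay under the median of every array, where that of 49.1% of all probe sets did. A mean under 4.5 was found for 25 of the 42 and for 8747 of 22746 probe sets. Probe sets differ in how they bind, so their signals do not rank the genes. Among the XTH genes 7 of 9 had a mean under 4.5. They were XTH16, XTH20, XTH21, XTH26, XTH29, XTH32 and XTH33, with single arrays between 2.90 and 4.91. EXPA7 and EXPA18, known from root hair initiation, lay between 3.85 and 4.14 and between 3.48 and 4.06. The other low EXPA genes were EXPA8, EXPA16, EXPA21 and EXPA24. In 20 of the 42 genes, and in 11942 of 22746 probe sets, all 9 arrays lay within 0.50 of each other.

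**Figure D1:**
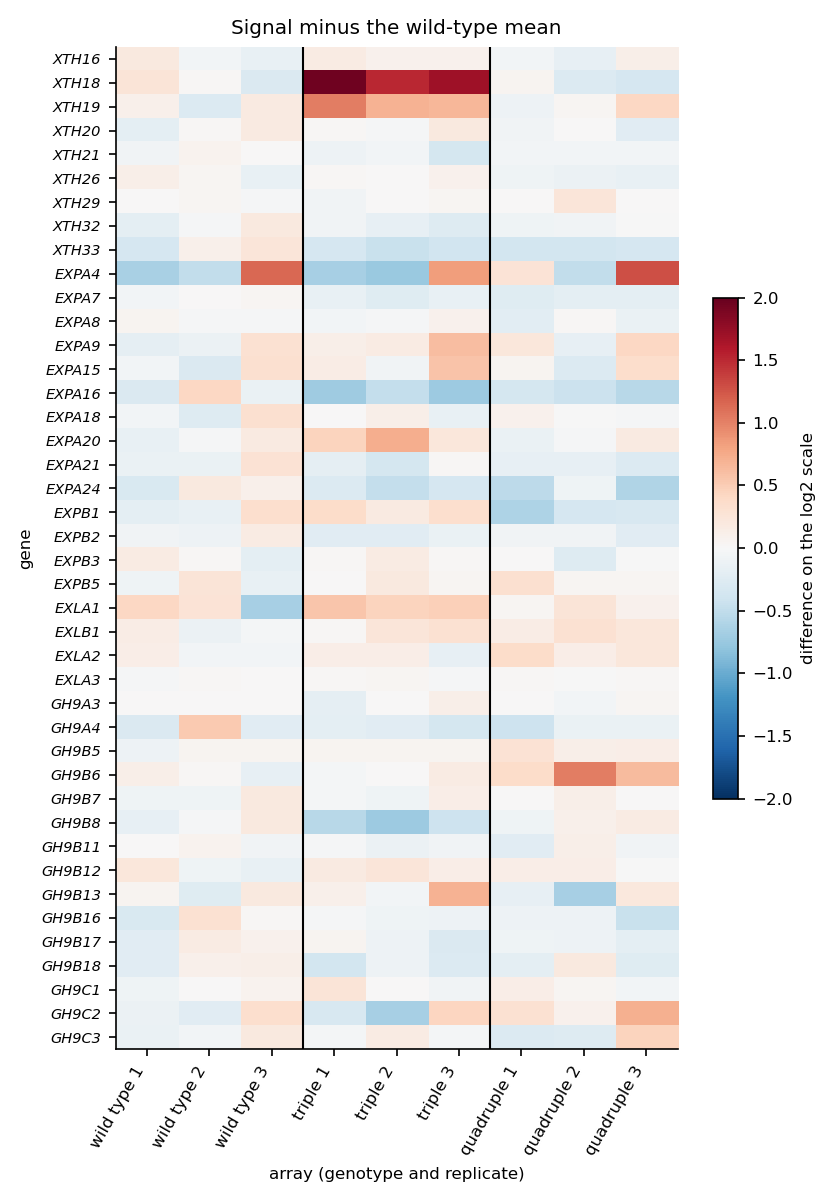
Log2 signal of each of the 42 genes (rows) on each of the 9 arrays (columns), minus the gene's wild-type mean; red is above and blue below it. XTH18 stands out on the 3 triple-mutant arrays, and EXPA4 on the array numbered 3 of each genotype.

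The response lay in few of the 42 genes. In the triple mutant against wild type XTH18 and XTH19 rose and 0 genes fell, so 4.76% of the 42 were called where 1.73% of all probe sets were (1.48% higher and 0.246% lower). In the quadruple mutant against wild type 0 of 42 were called by limma, where 0.044% of all probe sets were (0.022% higher and 0.022% lower), and 6 of 42 had an unadjusted p under 0.05, where 9.39% of all probe sets did. Between the mutants GH9B8 was higher and XTH18 and EXPB1 were lower in the quadruple mutant, so 7.14% were called where 2.22% of all probe sets were (0.554% higher and 1.66% lower).

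With the replicate number as a block, which compares same-numbered arrays, 2 genes rose and 2, EXPA16 and GH9B8, fell in the triple mutant against wild type, where 5.06% of all probe sets were called (4.14% higher and 0.928% lower). Between the mutants the block gave 3 higher genes, GH9B6, GH9B8 and GH9C2, and 4 lower ones, XTH18, XTH19, EXPB1 and GH9B13, where 4.9% of all probe sets were called (1.3% higher and 3.6% lower). In the quadruple mutant against wild type it gave 0 of 42, where 0.295% of all probe sets were called (0.22% higher and 0.0747% lower). Arrays of the triple mutant lay wholly above those of wild type for 4 genes and wholly below for 4, where 7.89% and 7.06% of all probe sets did, and 7 of 42 genes had an unadjusted p under 0.05, where 13.5% of all probe sets did. Arrays of the quadruple mutant lay wholly above those of wild type for 3 genes and below for 4 (7.61% and 5.17% of all probe sets), and wholly above those of the triple mutant for 4 and below for 7 (8.93% and 7.61%). An unadjusted p under 0.05 between the mutants was found for 6 of 42 genes and 10.9% of all probe sets.

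The median log2 change of the 42 genes was 0.01, -0.03 and -0.01 in these comparisons, beside medians of -0.02, 0.00 and 0.03 over all probe sets. In the triple mutant 4 genes, XTH18, XTH19, EXPA16 and GH9B8, differed from wild type by more than 0.50 in either direction, which is 9.52% beside 4.51% of all probe sets. Between the mutants these were 7 genes, which is 16.7% beside 4.44%, namely XTH18, XTH19, EXPB1, EXPA4, GH9B6, GH9B8 and GH9C2. In the quadruple mutant against wild type it was GH9B6 alone, 2.38% beside 1.64%.

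**Figure D2:**
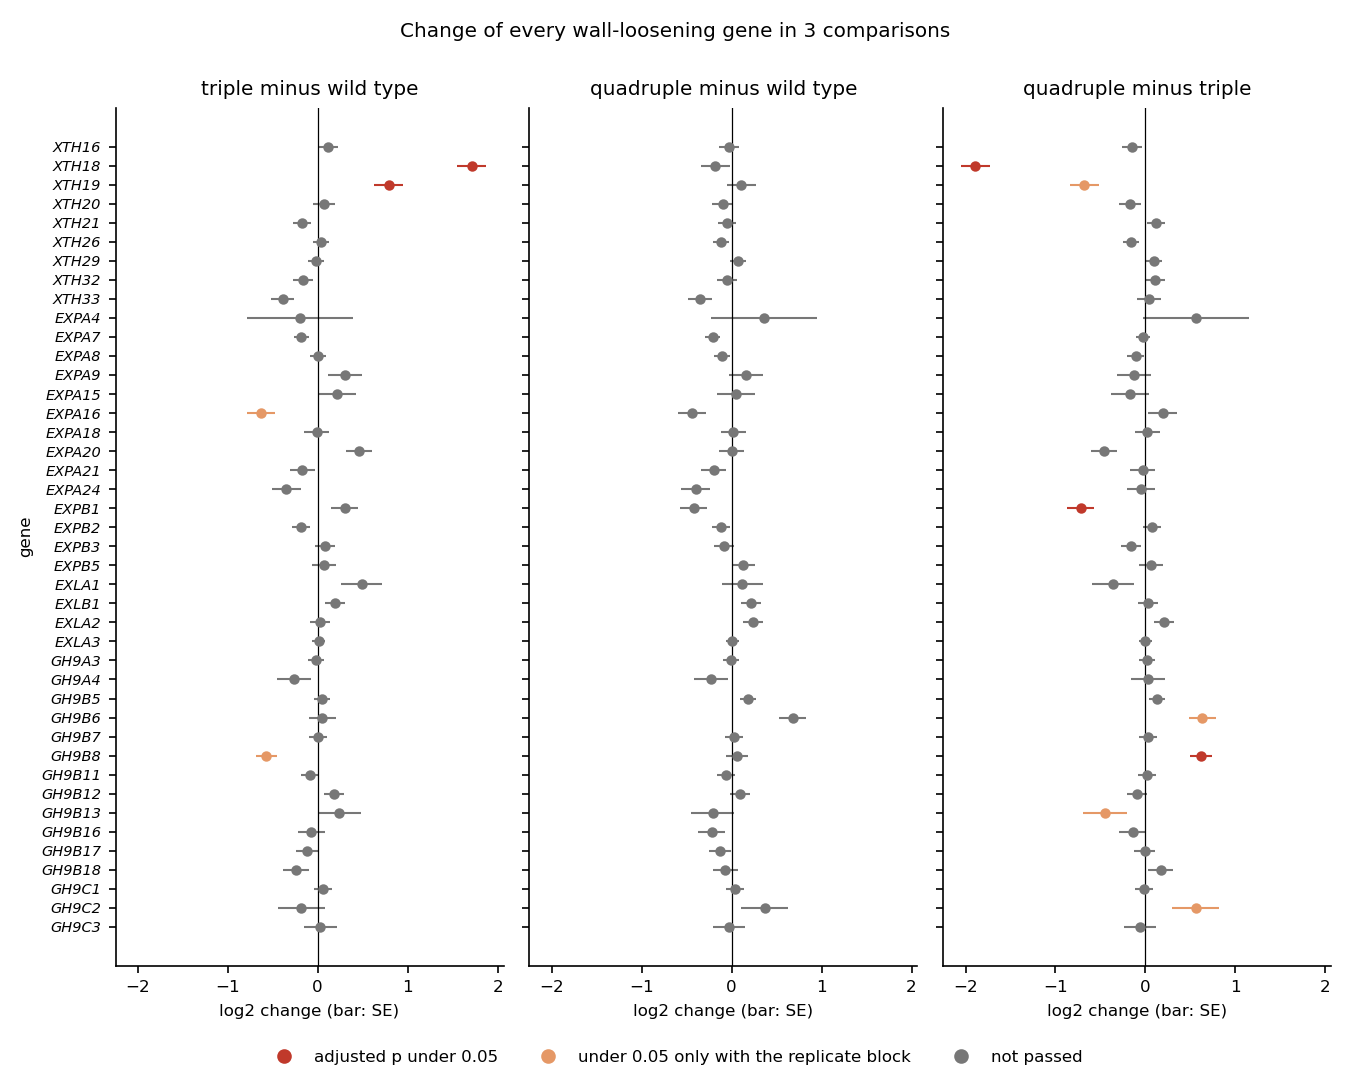
Log2 change of all 42 genes in the 3 comparisons, with bars for the SE. Red points passed at an adjusted p under 0.05, orange points passed only with the replicate number as a block, and grey points did not pass. Most points lie within 0.50 of 0, and XTH18 lies farthest out, at 1.71 and -1.89.

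XTH18 and XTH19 were higher in the triple mutant than in wild type. These are neighbouring genes with none between them in the TAIR10.1 gene order, and both encode xyloglucan endotransglucosylase/hydrolases. XTH18 (AT4G30280) had a log2 signal of 5.54, 5.32 and 5.0 in wild type, 7.23, 6.79 and 6.98 in the triple mutant, and 5.35, 5.02 and 4.95 in the quadruple mutant, in order of replicate number. All 3 triple-mutant arrays lay above the other 6, and the wild-type and quadruple-mutant arrays overlapped. The means were 5.29 ± 0.27, 7.0 ± 0.22 and 5.11 ± 0.21 (SD, n = 3 each). The rise in the triple mutant was 3.28-fold, with a log2 change of 1.71 (SE 0.16, 95% interval 1.35 to 2.08, limma adjusted p = 0.00122). Same-numbered arrays differed by 1.47 to 1.98. Compared with the triple mutant, the quadruple mutant had 3.71-fold less XTH18 signal, with a log2 change of -1.89 (SE 0.16, 95% interval -2.26 to -1.53, limma adjusted p = 3.85e-04). Between the quadruple mutant and wild type its log2 change was -0.18 (SE 0.16, limma adjusted p = 0.755), with a 95% interval of -0.54 to 0.19. Both comparisons that involve the triple mutant share its 3 arrays, for XTH18 as for XTH19 and GH9B8 below.

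XTH19 (AT4G30290) showed the same order with smaller differences. Its log2 signal was 9.10, 8.73 and 9.18 in wild type, 10.02, 9.69 and 9.66 in the triple mutant, and 8.90, 9.04 and 9.41 in the quadruple mutant. The 3 triple-mutant arrays again lay above the other 6. The rise was 1.73-fold over wild type, with a log2 change of 0.79 (SE 0.16, 95% interval 0.42 to 1.15, limma adjusted p = 0.0434). Of the 9 fits that left out 1 array, 1 kept this call, the fit without quadruple-mutant replicate 3 (adjusted p = 0.0360). The other 8 gave an adjusted p of 0.0505 to 0.161, and the call was also lost after median centring (0.0627), with only the 6 arrays compared (0.0816) and without the 3 arrays numbered 3 (0.0687). In the quadruple against the triple mutant the log2 change was -0.68 (SE 0.16, limma adjusted p = 0.0723), and it passed when the replicate number was a block (adjusted p = 0.0279), with array weights (-0.87, adjusted p = 0.00301) or without quadruple-mutant replicate 3 (adjusted p = 0.0462). Between the quadruple mutant and wild type it was 0.11 (SE 0.16, limma adjusted p = 0.853). The probe sets of XTH18 and XTH19 are separate and lack the suffix that marks probes shared between transcripts. Whether either also binds the transcript of the other was not tested.

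The other 7 XTH genes did not pass in any comparison. Their log2 changes lay between -0.39 and 0.12 in the triple mutant against wild type, between -0.35 and 0.07 in the quadruple mutant against wild type, and between -0.17 and 0.12 between the mutants. The lowest value in either comparison with wild type belonged to XTH33, which encodes an XTH with a predicted membrane anchor. XTH33 was at 4.33, 4.77 and 4.91 in wild type, 4.33, 4.22 and 4.29 in the triple mutant and 4.31, 4.31 and 4.33 in the quadruple mutant. The 6 mutant arrays lay within 0.11 of each other, and wild-type replicate 1 lay at their upper end. Without that array XTH33 passed for the triple mutant, at a log2 change of -0.56 (limma adjusted p = 0.0177) against -0.39 (limma adjusted p = 0.221) with all arrays. XTH20 and XTH21, both known from roots, had log2 changes of 0.07 and -0.17 in the triple mutant. XTH26, known from root hairs, was at 0.04.

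**Figure D3:**
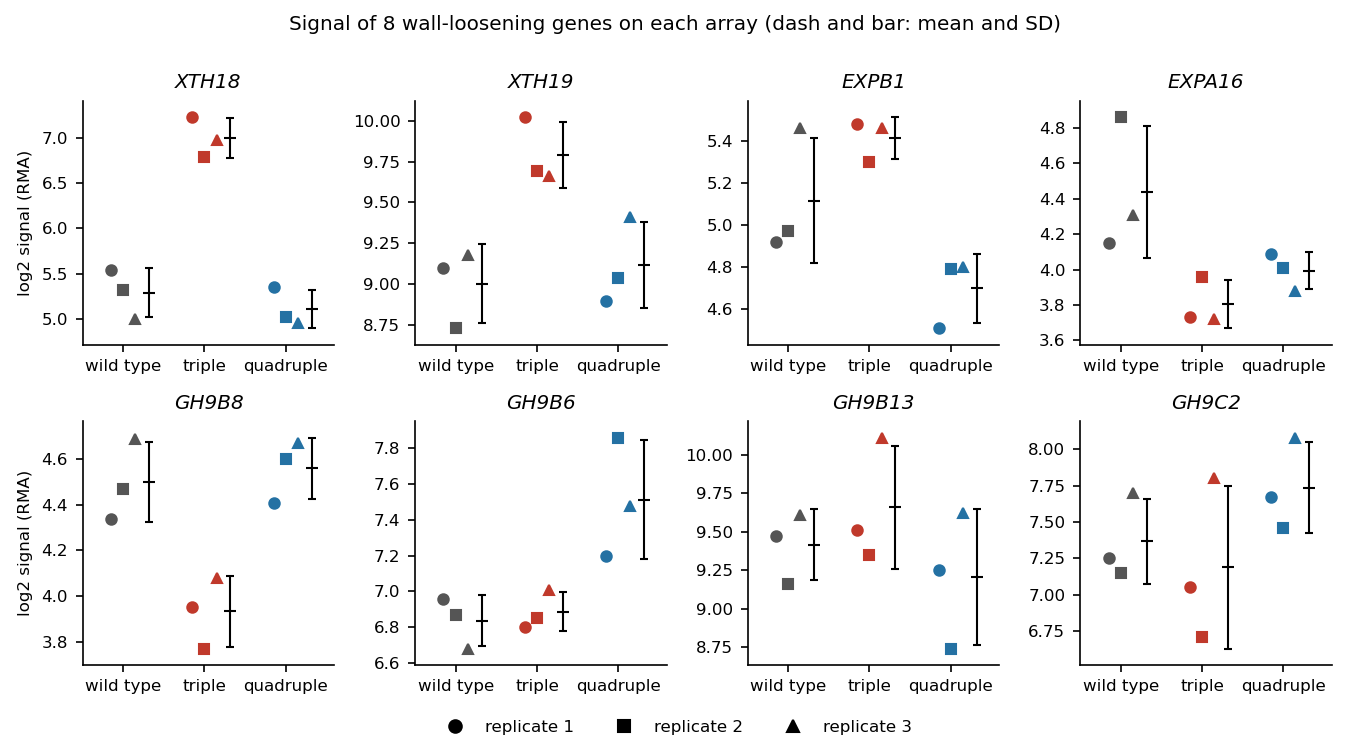
Log2 signal of 8 wall-loosening genes on each array, by genotype, with the replicate number given by the symbol; the dash and bar are the mean and SD (n = 3). The axes do not start at 0 and differ between genes. For XTH18 and XTH19 all 3 triple-mutant arrays lie above the other 6, and for GH9B8 below them.

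EXPB1 (AT2G20750), a beta-expansin, was the 1 expansin called in any comparison without the block, lower in the quadruple mutant when the mutants were compared. Its log2 signal was 4.92, 4.97 and 5.46 in wild type, 5.48, 5.30 and 5.46 in the triple mutant, and 4.51, 4.79 and 4.80 in the quadruple mutant. The 3 quadruple-mutant arrays lay below the other 6, and the triple-mutant and wild-type arrays overlapped. The difference between the mutants was 1.64-fold, with a log2 change of -0.72 (SE 0.15, 95% interval -1.05 to -0.39, limma adjusted p = 0.0348). This call was kept in the 3 fits without 1 wild-type array and lost in the 6 without 1 mutant array, at adjusted p of 0.0733 to 0.154. It was also lost after quantile normalization (adjusted p = 0.0611). Against wild type the log2 change was 0.30 in the triple mutant (limma adjusted p = 0.420) and -0.42 in the quadruple mutant (SE 0.15, limma adjusted p = 0.475). The other beta-expansins, EXPB2, EXPB3 and EXPB5, had log2 changes between -0.18 and 0.13 in the 3 comparisons.

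None of the 10 alpha-expansins passed over all probe sets without the block. EXPA16 (AT3G55500) had the most negative change in the triple mutant of the 42 genes. It was at 4.15, 4.86 and 4.31 in wild type, 3.73, 3.96 and 3.72 in the triple mutant, and 4.09, 4.01 and 3.88 in the quadruple mutant. All 6 mutant arrays lay below the 3 wild-type arrays, in a range under the array medians. The log2 change was -0.63 in the triple mutant (SE 0.16, 95% interval -1.0 to -0.26, limma adjusted p = 0.103) and -0.44 in the quadruple mutant (SE 0.16, limma adjusted p = 0.501). In the triple mutant it passed when the replicate number was a block (adjusted p = 0.0235) and without wild-type replicate 1 (adjusted p = 0.0420). These comparisons share the wild-type arrays.

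EXPA20 had arrays at 6.74, 6.87 and 7.07 in wild type, 7.34, 7.61 and 7.11 in the triple mutant and 6.75, 6.86 and 7.07 in the quadruple mutant. The triple-mutant arrays lay above the others, by 0.04 at the closest. Its log2 change was 0.46 against wild type (limma adjusted p = 0.173, or 0.0954 with the replicate block) and -0.46 between the mutants (limma adjusted p = 0.179). With array weights the difference between the mutants passed (adjusted p = 0.0120). EXPA7, the root hair expansin, was at 4.04, 4.11 and 4.14 in wild type, 3.95, 3.85 and 3.95 in the triple mutant and 3.85, 3.91 and 3.91 in the quadruple mutant. Its groups did not overlap between wild type and either mutant, and the log2 changes were -0.18 (95% interval -0.35 to -0.01, limma adjusted p = 0.345) and -0.21 (95% interval -0.38 to -0.04, limma adjusted p = 0.501). EXPA18, the other root hair expansin, was at -0.01 and 0.02. Of 30 other root hair and epidermis genes listed, 2 were measured, SCN1 with a log2 change of 0.29 and TRY of -0.55 in the triple mutant, and neither passed. EXPA8, EXPA21 and EXPA24 did not pass either, with EXPA24 at -0.35 for the triple mutant and -0.40 for the quadruple mutant.

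EXPA4, EXPA9 and EXPA15 differed more by replicate number than by genotype. EXPA4 (AT2G39700) was at 7.77, 7.92 and 9.57 in wild type, 7.75, 7.67 and 9.26 in the triple mutant, and 8.70, 7.93 and 9.71 in the quadruple mutant. The array numbered 3 was the highest in every genotype. Its log2 changes were -0.20, 0.36 and 0.56 in the 3 comparisons, each with an SE of 0.59, so the 95% interval for the triple mutant against wild type ran from -1.51 to 1.11. EXPA9 was at 8.97, 9.03 and 9.46 in wild type, 9.26, 9.32 and 9.77 in the triple mutant and 9.38, 8.99 and 9.57 in the quadruple mutant. Each triple-mutant array of EXPA9 exceeded the wild-type array of its number by 0.28 to 0.31, with a log2 change of 0.30 (SE 0.19) that did not pass without the block (limma adjusted p = 0.537) or with it (adjusted p = 0.153). EXPA15 was at 10.00, 9.76 and 10.37 in wild type, 10.20, 9.98 and 10.62 in the triple mutant and 10.11, 9.77 and 10.40 in the quadruple mutant. Its triple-mutant arrays exceeded the wild-type arrays of their number by 0.19 to 0.25 (log2 change 0.22, limma adjusted p = 0.691, or 0.157 with the block). Of the 42 genes, 6 were highest on the array numbered 3 in every genotype, where 11.3% of all probe sets were. The other 3 were GH9B8, GH9B13 and GH9C2. The labels name no batch behind the numbers, and which property of the samples moves with them was not tested.

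**Figure D4:**
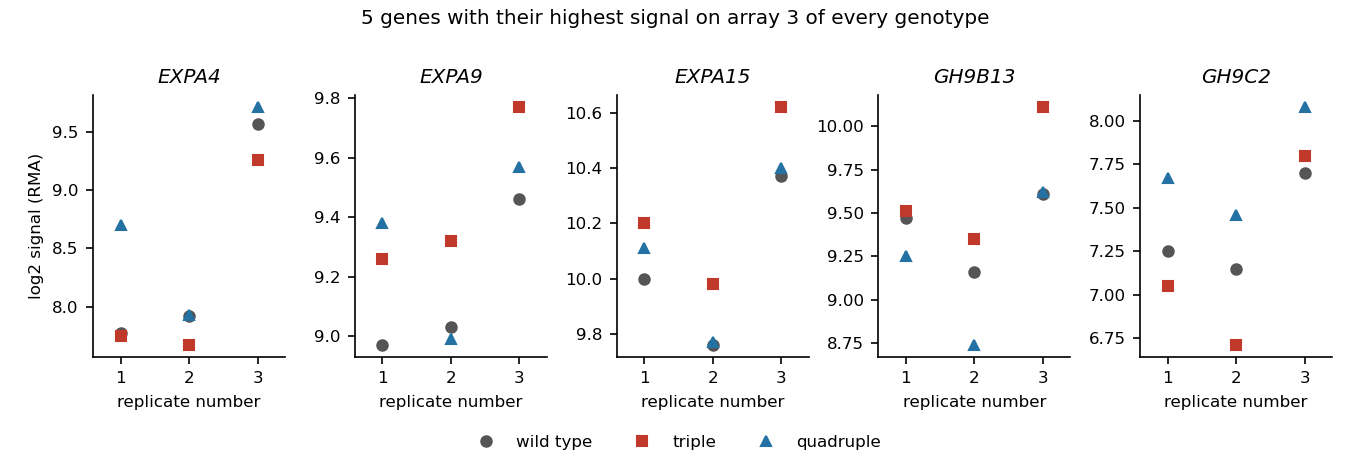
Log2 signal of EXPA4, EXPA9, EXPA15, GH9B13 and GH9C2 by replicate number, with the genotype given by colour and symbol. The axes do not start at 0 and differ between genes. In each genotype the array numbered 3 is the highest; the replicate numbers are names and not an order.

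The 4 expansin-like genes did not pass in any comparison. EXLA1 (AT3G45970) was at 6.90, 6.76 and 5.82 in wild type, 7.04, 6.94 and 6.96 in the triple mutant and 6.53, 6.74 and 6.58 in the quadruple mutant. The triple-mutant arrays lay just above the wild-type ones. The wild-type spread came from replicate 3, the array on which RCA was high as well, and the part of green tissue in it was not tested. The log2 change in the triple mutant was 0.49 (SE 0.23, 95% interval -0.02 to 0.99, limma adjusted p = 0.394). EXLA3, its direct neighbour in gene order, lay between 3.27 and 3.33 on all arrays. EXLA2 and EXLB1 had log2 changes of 0.03 and 0.19 in the triple mutant and 0.24 and 0.22 in the quadruple mutant.

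Among the endoglucanases, GH9B8 was the 1 called without the block, and it was higher in the quadruple mutant when the mutants were compared. With the block GH9B6, GH9B13 and GH9C2 were called between the mutants as well. GH9B8 (AT2G32990), a class B enzyme, had a log2 signal of 4.34, 4.47 and 4.69 in wild type, 3.95, 3.77 and 4.08 in the triple mutant, and 4.41, 4.60 and 4.67 in the quadruple mutant. All 3 triple-mutant arrays lay below the other 6, the reverse of XTH18, and wild type and quadruple mutant overlapped. The difference between the mutants was 1.54-fold, with a log2 change of 0.62 (SE 0.12, 95% interval 0.35 to 0.90, limma adjusted p = 0.0272). The call was kept without any 1 wild-type array or triple-mutant replicate 3. It was lost in the other 5 fits without 1 array, which were those without triple-mutant replicates 1 and 2 and each quadruple-mutant replicate, at adjusted p of 0.0533 to 0.115. It was lost without the 3 arrays numbered 3 as well (log2 change 0.64, adjusted p = 0.0530). Against wild type the triple mutant was at -0.57 (SE 0.12, 95% interval -0.84 to -0.30) with a limma adjusted p = 0.05001, just over the threshold. It passed when the replicate number was a block (adjusted p = 0.00799), after median centring (0.0332), with array weights (0.0483) and without wild-type replicate 1 (0.0381). In the quadruple mutant against wild type GH9B8 was at 0.06 (95% interval -0.21 to 0.33, limma adjusted p = 0.904), and at -0.03 after median centring. All 9 signals lay under the array medians.

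GH9B6 (AT1G23210) differed in the quadruple mutant instead. It was at 6.96, 6.87 and 6.68 in wild type, 6.80, 6.85 and 7.01 in the triple mutant, and 7.2, 7.86 and 7.48 in the quadruple mutant. All 3 quadruple-mutant arrays lay above the other 6. The log2 change was 0.68 against wild type (SE 0.15, 95% interval 0.33 to 1.02, limma adjusted p = 0.241) and 0.63 against the triple mutant (SE 0.15, 95% interval 0.28 to 0.97, limma adjusted p = 0.0783). The latter passed when the replicate number was a block (adjusted p = 0.0384), with array weights (0.0296) and without quadruple-mutant replicate 1 (0.0393). These comparisons share the quadruple-mutant arrays.

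GH9C2 and GH9B13 separated the mutants once arrays were compared by number. GH9C2 (AT1G64390), of the class with a carbohydrate-binding module, was at 7.25, 7.15 and 7.70 in wild type, 7.05, 6.71 and 7.80 in the triple mutant, and 7.67, 7.46 and 8.08 in the quadruple mutant. The groups overlapped, yet each quadruple-mutant array exceeded the triple-mutant array of its number, by 0.28 to 0.76. The log2 change was 0.56, with a limma adjusted p = 0.503 and 0.0187 with the replicate block. GH9B13 (AT4G02290) was at 9.47, 9.16 and 9.61 in wild type, 9.51, 9.35 and 10.11 in the triple mutant, and 9.25, 8.74 and 9.62 in the quadruple mutant. It moved the other way, each quadruple-mutant array lying below its triple-mutant partner by 0.26 to 0.61. Its log2 change was -0.45, with a limma adjusted p = 0.582 and 0.0468 with the replicate block. Neither passed against wild type in any fit made.

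The other 11 GH9 genes did not pass in any comparison, with log2 changes between -0.26 and 0.18. They were the class A genes GH9A3 and GH9A4, the class B genes GH9B5, GH9B7, GH9B11, GH9B12, GH9B16, GH9B17 and GH9B18, and the class C genes GH9C1 and GH9C3. GH9B7 had a signal of 9.29, 9.29 and 9.57 in wild type, 9.34, 9.30 and 9.51 in the triple mutant and 9.38, 9.49 and 9.38 in the quadruple mutant, and its log2 change was 0.03 or less in size in each comparison. GH9B16, GH9B17 and GH9B18 are direct neighbours, as are GH9B11 and GH9B12. The first 3 had log2 changes of -0.07, -0.12 and -0.24 in the triple mutant, and the latter pair of -0.08 and 0.18. Of these tandem genes only XTH18 and XTH19 held a call.

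Other wall genes were thinly covered, and 0 of 17 passed in limma. Of all probe sets 1.73%, 0.044% and 2.22% did so in the 3 comparisons. The 17 came from 4 lists, with 8 genes of xyloglucan and mannan synthesis and trimming, 5 of pectin, 3 of cellulose and xylan synthesis and 1 further xyloglucan endotransglucosylase, EXGT-A3. Their median log2 changes were 0.09, 0.03 and -0.03 in the 3 comparisons. The xyloglucan backbone synthase gene CSLC04 was at 6.83 ± 0.31 in wild type, 7.48 ± 0.37 for the triple mutant and 7.06 ± 0.20 for the quadruple mutant (SD, n = 3 each). Its log2 change in the triple mutant was 0.65 (limma adjusted p = 0.175), and it passed with the replicate block (adjusted p = 0.00356), as did its change of -0.42 between the mutants (limma adjusted p = 0.506, or 0.0280 with the block). With the block 2 pectin genes passed as well. The block called 5.06% of all probe sets in the triple mutant against wild type and 4.9% between the mutants. GAUT15, of a family of pectin glycosyltransferases, had a log2 change of 0.61 in the triple mutant against wild type (limma adjusted p = 0.122, or 0.00667 with the block), and the gene listed as ATPMEPCRB one of -0.39 between the mutants (limma adjusted p = 0.145, or 0.0322 with the block). EXGT-A3 had log2 changes of 0.16 and 0.33 in the triple and quadruple mutants (limma adjusted p = 0.522 and 0.368). The list of wall structural proteins had no measured member.

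Some genes that mark cell populations of the tip differed between the mutants, and others did not. AGL42, expressed in the quiescent centre, lay between 5.66 and 6.04 on wild-type arrays, 5.09 and 5.5 on triple-mutant arrays, and 6.35 and 6.76 on quadruple-mutant arrays. BBM lay between 7.68 and 7.86, 7.75 and 8.0, and 8.33 and 8.38 in the same order. These were 2 of the 4 measured genes of a list of 25 root-tip regulators, and both rose in the quadruple against the triple mutant (log2 changes 1.33 and 0.45, limma adjusted p = 0.00149 and 0.0353). In the triple mutant against wild type AGL42 was at -0.63 (limma adjusted p = 0.0737) and passed with the block (adjusted p = 0.00516). In the quadruple mutant against wild type AGL42 was at 0.70 and BBM at 0.60 (limma adjusted p = 0.203 and 0.0947). Both passed with the block (limma adjusted p = 0.0251 and 0.0325). Between the mutants the other 2, JKD and LHW, had log2 changes of 0.05 and 0.00. The 3 measured genes of a list of 29 division genes, AUR1, AUR2 and AUR3, did not pass. Their log2 changes were -0.25 to -0.05 in the triple mutant against wild type and 0.04 to 0.28 between the mutants. In tissue RNA fewer cells of a type and less RNA per cell cannot be told apart, and the part of cell makeup in the changes of XTH18, XTH19, EXPB1 and GH9B8 was not tested.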

How the data were processed

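The deposited table holds 1 log2 signal per probe set and array from the authors. Per the submitters' processing notes, RMA, limma and Affymetrix Expression Console were used, and neither versions nor a genome build are given in the sources used here. The values were normalized between arrays by RMA, so changes are relative to other transcripts. Of 22810 probe sets, 64 controls were left out. The platform annotation pairs 13513 of the rest with a single gene and 503 with more than that, and gives no gene for 8730. Current symbols came from RefSeq TAIR10.1 by Entrez identifier, where 77 went unmatched. Gene positions from RefSeq TAIR10.1 gave the gene order, and no sequences were used.

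The 3 comparisons come from a single limma fit (limma 3.58.1, R 4.3.3) to all 9 arrays, with a mean per genotype (6 residual degrees of freedom). The code was tested on simulated data with noise drawn separately for each array, so without any effect shared by replicate number. That test checks the code and not the calls made here. The labels do not say how seedlings were divided between replicates. The p-values set each genotype difference against the spread between these samples within genotypes. Deviations of same-numbered arrays correlated at 0.273, 0.330 and 0.408 between triple mutant and wild type and at 0.217, 0.340 and 0.515 between the mutants, so the numbers count as pairing these arrays, and the fit with the block is given beside the unpaired one where it changes a call. Between quadruple mutant and wild type they correlated at 0.0427, 0.342 and 0.360. The first of these was the lowest of all, and the others lay in the range of those above. Arrays that pair with those of the triple mutant by number also pair with each other. The fit with the block is therefore given for this comparison too where it changes a call. The block is part of a single fit to all 9 arrays, so these arrays enter it for every comparison.

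Members, lists and tests were chosen with earlier results of these data known. Values on every array are given for the genes called with or without the block and the 3 of largest change per comparison, which are 8 genes. Those of EXPA4, EXPA7, EXPA9, EXPA15, EXPA20, EXLA1, GH9B7 and XTH33 were added after their values were seen, as were CSLC04, GAUT15 and ATPMEPCRB. Of the listed wall proteins, 2 splicing factor genes caught by the symbol search were dropped. Alternatives were median centring, quantile normalization, array weights, a variance trend, a filter at a mean log2 signal of 5, the replicate block, a fit to the 6 arrays compared, and leaving out each array; leaving out the 3 arrays numbered 3 was added after the data were seen.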

Additional observations from a re-analysis of the deposited data

How the results depend on the processing

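XTH18 passed in both comparisons that involve the triple mutant, under all 8 other settings and all 9 fits without 1 array. These comparisons share the triple-mutant arrays. The count of the 42 genes called in the triple mutant against wild type was 2, and became 4 with the replicate block, 1 with only the 6 arrays compared, 1 without the 3 arrays numbered 3, and 1 to 4 without 1 array, where 4 came without wild-type replicate 1. Between the mutants it was 3, and became 7 with the replicate block, 6 with array weights, and 1 to 3 without 1 array, where 1 came without triple-mutant replicate 1 or 2 or quadruple-mutant replicate 2. In the quadruple mutant against wild type it was 0 under every setting. Over all probe sets the 3 comparisons had 393, 10 and 504 calls. These became 1152, 67 and 1114 with the replicate block, which in the quadruple mutant against wild type also called AGL42 (adjusted p = 0.0251) and BBM (0.0325). For the triple mutant against wild type they became 167 with only the 6 arrays compared, 166 without the 3 arrays numbered 3, and 182 to 647 without 1 array. For the quadruple mutant against wild type they became 5, 2 and 4 to 59 in turn, and between the mutants 1663 with array weights and 220 to 610 without 1 array. Median centring moved the median of all probe sets in the triple mutant from -0.02 to -0.12 and the calls from 337 higher and 56 lower to 214 and 102. It ended the call of XTH19 (log2 change 0.79 before and 0.69 after) and made one of GH9B8 (-0.57 and -0.67). Centring takes out the array medians, which were 5.89, 5.79 and 5.82 in wild type and 5.92, 5.94 and 5.95 in the triple mutant. Why these medians differ was not tested.

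Changes near 0 turned sign, none of them past the threshold on either side. GH9B6 in the triple mutant against wild type, at 0.05, became -0.03 after quantile normalization, -0.05 after median centring, -0.03 with array weights, -0.09 without the 3 arrays numbered 3, and -0.03 to 0.11 without 1 array. GH9B8 in the quadruple mutant against wild type, at 0.06, became -0.03 after median centring and -0.02 to 0.15 without 1 array. Without 1 array XTH19 in the quadruple mutant against wild type ranged from -0.04 to 0.22, GH9B13 there from -0.42 to 0.02, and GH9C2 in the triple mutant from -0.49 to 0.06. The cause was not tested. In signals under the array medians, such as GH9B8 and EXPA16, background limits what the arrays can show. Leaving out the weak probe sets dropped both from the test, and with 1 probe set a gene the choice of probe set had no effect.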
